A study of Homo sapiens with 32 samples.

Results

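Uracil in DNA was mapped with U-DNA-Seq, which captures uracil-containing DNA on ΔUNG, a FLAG-tagged form of the repair enzyme UNG that binds uracil but cannot cut it out, and sequences the captured DNA beside its input, and 19 places on chromosomes 1 to 22 stood out by the height of their enrichment. Each library was deposited as a list of regions with a log2 ratio of enriched to input coverage, and the members described here were chosen by that value alone: every region with a log2 value of 1.0 or more, that is, with the enriched coverage at 2 times the input or more. They are 38 of the 1917332 regions of 15 libraries, or 0.00198%, and they merged into 19 loci that hold 150 kb. Because the log2 value chose them, it is given below as a description. The lowest value among the members was 1.0, in replicate 2 of NT_UGI, and the highest value that stayed below the limit was 0.997, in replicate 1 of NT_UGI_MMR. A further 43 regions lay between 0.9 and 1.0, and 16 of them overlapped one of the 19 loci.

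Of the libraries, 14 came from HCT116, a human colorectal carcinoma line without working mismatch repair (MMR), in 7 conditions with 2 biological replicates each. WT cells were neither transduced nor treated. All other HCT116 cells carried a retroviral construct for UGI, a small protein that blocks UNG, together with EGFP, and were sorted for it: NT_UGI without drug, 5FdUR_UGI with the fluorinated nucleoside 5FdUR at 20 µM and RTX_UGI with raltitrexed (RTX) at 100 nM, each over 48 h. The conditions NT_UGI_MMR, 5FdUR_UGI_MMR and RTX_UGI_MMR are the same in MMR proficient cells of that line, which hold an added chromosome 3. K562, a chronic myelogenous leukemia line, gave 1 library without a replicate. The 6 libraries of WT, NT_UGI and NT_UGI_MMR are called non-treated below. The region files carry no read counts, so no count of reads stands behind a value here and the spread between libraries is the only measure of precision.

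Uracil enters DNA when dUTP is used in place of dTTP during synthesis or when cytosine loses its amino group, and uracil-DNA glycosylase removes it to start base excision repair. UGI blocks that step, and 5FdUR and raltitrexed act on thymidylate synthase, the enzyme that makes dTMP from dUMP. Tandem repeats are stretches in which a short unit of sequence follows itself many times, from microsatellites with units of a few bases through minisatellites with longer ones to the satellites around centromeres.

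The loci had one sequence feature in common that the rule did not use. In 18 of the 19, a large part of the DNA was made of words of 16 bases that recurred within 300 bases on the same strand, here called the repeated share. It lay between 12.5% on chromosome 21 and 63.2% on chromosome 22 in these 18 loci, against 1.94% of chromosomes 1 to 22. The exception was the locus on chromosome 20, the only one chosen by a drug-treated library, with a repeated share of 0%. For comparison, 3.34% of the 126582 other regions of 5 kb or more in the non-treated libraries had a repeated share of 5% or more. This measure was added after the sequences of the loci had been read, and no test was made of it.

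Most of the loci fell into 3 families when those that shared at least 5% of their words of 12 bases both ways, on either strand, were joined. The following stretches of 180 bases are shown because they carry the units of the families. They are the forward strand of the reference (GRCh38), taken where the commonest word of 10 bases of the family is densest, and capitals mark that word or its reverse complement. In the first family the word is AATATCACAG, which reads CTGTGATATT on the other strand.
chr7:99590545-99590724: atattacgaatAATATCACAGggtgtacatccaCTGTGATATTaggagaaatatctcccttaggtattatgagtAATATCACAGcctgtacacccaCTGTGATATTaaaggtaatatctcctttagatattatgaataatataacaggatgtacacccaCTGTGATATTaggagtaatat
chr5:135753088-135753267: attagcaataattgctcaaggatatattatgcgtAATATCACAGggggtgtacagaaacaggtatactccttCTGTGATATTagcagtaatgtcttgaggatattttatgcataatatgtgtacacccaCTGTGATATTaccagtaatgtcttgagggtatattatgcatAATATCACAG
In the second family the word is ATATATACAC or GTGTATATAT.
chr5:118539024-118539203: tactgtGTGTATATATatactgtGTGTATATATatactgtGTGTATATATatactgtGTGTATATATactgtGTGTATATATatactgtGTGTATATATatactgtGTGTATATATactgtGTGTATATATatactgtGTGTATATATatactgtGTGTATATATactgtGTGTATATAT
In the third family the word is AAAATATCAA or TTGATATTTT.
chr14:16095455-16095634: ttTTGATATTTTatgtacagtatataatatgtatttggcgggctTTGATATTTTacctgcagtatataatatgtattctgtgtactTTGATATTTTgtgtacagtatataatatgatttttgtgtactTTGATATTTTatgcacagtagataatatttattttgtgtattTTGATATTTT
chr4:51107367-51107546: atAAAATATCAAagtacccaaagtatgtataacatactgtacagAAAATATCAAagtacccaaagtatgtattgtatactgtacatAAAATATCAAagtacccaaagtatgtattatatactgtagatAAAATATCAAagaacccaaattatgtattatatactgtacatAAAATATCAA
The loci at 32 Mb of chromosome 16 and on chromosome 21 each had a unit of their own, and the stretch from chromosome 20 is the middle of the locus without repeats.
chr16:31960344-31960523: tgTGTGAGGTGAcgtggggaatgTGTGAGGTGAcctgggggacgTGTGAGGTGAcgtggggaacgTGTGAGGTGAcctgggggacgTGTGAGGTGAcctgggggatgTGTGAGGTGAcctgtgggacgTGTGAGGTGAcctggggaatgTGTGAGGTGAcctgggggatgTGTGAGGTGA
chr21:32713115-32713294: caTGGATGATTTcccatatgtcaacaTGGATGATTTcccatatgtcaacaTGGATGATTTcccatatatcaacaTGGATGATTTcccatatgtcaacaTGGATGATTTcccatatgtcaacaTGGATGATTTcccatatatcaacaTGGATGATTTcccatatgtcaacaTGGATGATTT
chr20:15830461-15830640: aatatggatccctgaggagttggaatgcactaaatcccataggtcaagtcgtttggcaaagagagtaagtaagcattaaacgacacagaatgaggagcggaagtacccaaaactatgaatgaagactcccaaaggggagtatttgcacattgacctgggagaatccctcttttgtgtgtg

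The members were unevenly spread over the libraries. Replicate 2 of NT_UGI held 10 of the 38, K562 7, replicate 1 of NT_UGI_MMR 6, replicate 1 of WT 5, replicate 1 of NT_UGI 4, replicate 2 of NT_UGI_MMR 3 and replicate 2 of WT 2. Of the 8 drug-treated libraries, replicate 1 of RTX_UGI_MMR held 1 member and the other 7 libraries held none. The highest log2 value of an autosomal region in those 7 lay between 0.50, in replicate 2 of 5FdUR_UGI_MMR, and 0.82, in replicate 2 of RTX_UGI. The non-treated HCT116 libraries chose 14 loci and K562 chose 7, of which 3 were shared. Of the 19, 12 were chosen by 1 library and 7 by more than 1.

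The loci were covered in nearly all non-treated libraries, also in those that did not choose them. Between 17 and 18 of the 19 loci were touched by a region in each non-treated HCT116 library and 17 in K562. Regions covered 85.5% ± 3.04 (SD, n = 6) of the locus bases in the non-treated HCT116 libraries and 82.5% in K562, where all regions together covered between 11.2% and 11.6% of the autosomes. In each library the loci chosen elsewhere are a measure that its own values did not fix. Their median log2 value was between 0.79 and 0.98 in the 6 non-treated libraries, where the median of all regions was between 0.29 and 0.37, and at most 0.0176% of the regions of a library reached that median. In K562, 13 of the 15 loci chosen by other libraries held a region, with a median log2 value of 0.87. Between replicates, 30 of 31 pairs of a locus and the library that chose it had a region in the other replicate, and 12 of the 31 had a value of 1.0 or more there. The exception was the locus on chromosome 20.

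Coverage was lower in the drug-treated libraries, although their regions covered more of the autosomes, between 17.6% and 19.7%. The 4 5FdUR libraries touched between 5 and 14 loci and covered 26.6% ± 12.4 (SD, n = 4) of their bases. The 4 RTX libraries touched between 5 and 13 loci and covered 42.1% ± 15.4 (SD, n = 4). The ranges of both drugs lay below that of the non-treated libraries. Non-treated libraries chose 14 of the 19 loci, so this order follows in part from the rule and nothing is read from it. In bins of 10 kb, 9 of the 26 bins of the loci that non-treated libraries chose had more coverage in all 6 non-treated than in all 8 drug-treated libraries, beside 10.7% of all bins, and since the rule used these libraries nothing is read from that count. A log2 value belongs to a whole region, and the regions over the loci reached a length of 411 kb in replicate 2 of RTX_UGI against 27.6 kb in any non-treated library, so a narrow peak inside a long region is averaged with its surroundings. The median length of the regions at the loci was between 4.7 and 11 kb in the drug-treated libraries and between 5.75 and 7.2 kb in the non-treated ones. That median counts only the loci that held a region in a library. The part of region length in the log2 values after drug treatment was not tested.

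The first family had 6 loci and 65.1 kb. It held the longest ones, at 99.6 Mb of chromosome 7 (14.4 kb) and at 10.7 Mb of chromosome 16 (13.4 kb), besides those at 135.8 Mb of chromosome 5, 37.8 Mb of chromosome 7, 29.3 Mb of chromosome 8 and 14.8 Mb of chromosome 16. Together they held 398 copies of AATATCACAG on either strand, between 31 and 96 in a locus. In all there were 197 copies on the forward and 201 on the reverse strand, but single loci were uneven, with 72 and 23 at 99.6 Mb of chromosome 7, 7 and 24 at 135.8 Mb of chromosome 5 and 20 and 40 at 10.7 Mb of chromosome 16. A forward copy was followed by a reverse copy that began 15 to 30 bases further on in 40 cases, between 0 at 135.8 Mb of chromosome 5 and 13 at 14.8 Mb of chromosome 16.

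The locus at 29.3 Mb of chromosome 8 (chr8:29318901-29330900) was the most recurrent of this family. Its log2 value was 1.07 and 0.79 in the WT replicates, 1.04 and 1.16 in those of NT_UGI, 0.997 (below the limit) and 1.16 in those of NT_UGI_MMR and 0.87 in K562. It was also the locus with the widest coverage after drug treatment: all 4 RTX libraries covered it fully, with values between 0.51 and 0.66, and so did 3 of the 4 5FdUR libraries. In 7 of these 8 libraries the locus was part of a region of 38.9 to 203 kb. The locus holds the start and 128 bp of exon of the long non-coding RNA gene ENSG00000288735 and ends 2.16 kb from DUSP4, which encodes a phosphatase of MAP kinases.

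At 135.8 Mb of chromosome 5 (chr5:135751501-135761300) the values were 0.91 and 0.89 in WT, 0.99 and 1.08 in NT_UGI, 1.09 and 0.79 in NT_UGI_MMR and 0.96 in K562, a range within which the libraries that chose the locus are the upper end. It lies within SLC25A48, a gene of the mitochondrial carrier family, and holds 96 bp of its exons. At 99.6 Mb of chromosome 7 (chr7:99583401-99597800), K562 chose the locus with 1.02, and the non-treated HCT116 libraries had between 0.82 and 0.96, with a median of 0.87. All 4 RTX libraries held a region there, with values between 0.38 and 0.56, and 1 5FdUR library did, with 0.28. It lies inside ENSG00000272647, annotated as protein-coding, without an exon. At 10.7 Mb of chromosome 16 (chr16:10696101-10709500), 1.17 kb from TEKT5, a tektin gene, the value was 1.01 in K562 and between 0.79 and 0.97 in the non-treated HCT116 libraries. The remaining members of the family are the locus at 37.8 Mb of chromosome 7, within the orphan receptor gene GPR141 and the overlapping ENSG00000290149 (highest value 1.06, in NT_UGI replicate 2), and that at 14.8 Mb of chromosome 16, 2.52 kb from NOMO1. At the latter, K562 had 1.02 and the non-treated HCT116 libraries between 0.36 and 0.57, and since the value of K562 alone chose the locus, nothing is read from that difference.

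The second family had 5 loci and 32.5 kb. Its most recurrent locus, at 118.5 Mb of chromosome 5 (chr5:118536601-118545400), held 140 copies of ATATATACAC on either strand and a repeated share of 56.7%. Its log2 value was 0.99 and 1.18 in WT, 1.01 and 1.42 in NT_UGI, 1.02 and 0.83 in NT_UGI_MMR and 0.92 in K562. RTX_UGI had 0.77 and 0.65 there, RTX_UGI_MMR 0.28 in 1 replicate and no region in the other, and the 5FdUR libraries 0.31, 0.25 and, in 2 of them, no region. It lies in an intron of the non-coding RNA gene LINC02208. The locus on chromosome 15 (chr15:94240701-94247700), in an intron of MCTP2, which encodes a membrane protein with calcium-binding C2 domains, was chosen by WT replicate 1 (1.02) and NT_UGI replicate 2 (1.0), and the non-treated libraries ranged from 0.70 to 1.02.

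The other members of this family were each chosen by 1 library. On chromosome 11 (chr11:134825101-134830700), outside any gene, NT_UGI replicate 2 had 1.14 and the other 5 non-treated libraries had between 0.50 and 0.64. On chromosome 19 (chr19:53557001-53562600), in an intron of the zinc finger gene ZNF331, NT_UGI replicate 2 had 1.09 and the others between 0.54 and 0.60. Replicate 1 of NT_UGI had 0.50 on chromosome 11, the lowest of the 6, and 0.60 on chromosome 19. On chromosome 17, 26.2 kb from the homeobox gene DLX3, WT replicate 1 had 1.04 and NT_UGI replicate 2 0.99, above a lowest value of 0.57. No RTX library held a region at the loci of chromosomes 11 and 19, while all 4 held one at that of chromosome 17. There, however, RTX_UGI_MMR replicate 1 covered only 1.82% of the locus, and the regions of the RTX_UGI replicates were 184 and 411 kb long.

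The third family had 4 loci and 30.6 kb, on chromosomes 4, 8, 14 and 22. The locus on chromosome 14 (chr14:16089601-16097500) was the most recurrent of all, with a value above the limit in 7 libraries. It had 1.35 and 1.16 in WT, 1.19 and 1.24 in NT_UGI, 1.18 and 1.01 in NT_UGI_MMR and 1.29 in K562. Each of these libraries covered at least 89.9% of it. After drug treatment RTX_UGI had 0.60 and 0.34, 1 5FdUR library had 0.18 over 5.06% of the locus, and the other 5 libraries held no region. No gene lies there, and the nearest protein-coding gene, OR11H12, an olfactory receptor gene, is 2504 kb away. Words recurred most often at 171 bp, followed by 44 bp. In the loci of this family at 43.2 Mb of chromosome 8 and on chromosome 22 the commonest spacing was 42 bp. At 43.2 Mb of chromosome 8 (chr8:43235101-43244600), which shared 37.2% of the words of the locus on chromosome 14, K562 had 1.3 and the non-treated HCT116 libraries between 0.88 and 1.17. On chromosome 22, where 1821 of the 7600 bases are unknown in the reference, K562 had 1.01. The 4 libraries of MMR deficient non-treated cells had between 0.80 and 0.88 there and the 2 of NT_UGI_MMR 0.38 and 0.34.

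The highest log2 values of the 15 libraries on chromosomes 1 to 22 were on chromosome 4 (chr4:51104701-51110300), a locus of 5.6 kb with 100 unknown bases in the reference. It had 1.89 and 2.20 in NT_UGI_MMR and 1.72 in K562, and no region at all in the 4 non-treated libraries of MMR deficient cells or in the 8 drug-treated libraries, MMR proficient ones included. The merged file of NT_UGI_MMR gave it a log2 value of 2.0. The MMR deficient and proficient non-treated libraries did not overlap at this locus, where the values of NT_UGI_MMR chose it. They did not overlap on chromosome 22 either, which K562 alone chose and where the order was the other way round. The same order as on chromosome 22 was found on chromosome 17, which WT replicate 1 chose. The values there were 0.73 to 1.04 in MMR deficient and 0.57 to 0.70 in MMR proficient libraries. At no other locus did these groups separate. How often they separate over all regions was not counted, so nothing is read from these loci. None of these differences was tested, and the loci were singled out after their values were seen. The 8 copies of the word of the family on chromosome 4 lay within 0.388 kb of that locus. Another word, AGTTTCTGAG, was more frequent there, with 24 copies on either strand, and the commonest spacing was 84 bp.

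The other loci, 4 in number, belonged to no family. On chromosome 21 (chr21:32710801-32716300) a unit of 24 bp repeats over 0.68 kb in an intron of SYNJ1, the gene of the phosphoinositide phosphatase synaptojanin 1. NT_UGI_MMR replicate 1 had 1.31, its replicate 0.66, the other non-treated libraries between 0.57 and 0.78 and K562 0.84, and all 4 RTX libraries held a region, with values between 0.35 and 0.54. At 32 Mb of chromosome 16 (chr16:31957701-31963200), which had the highest GC content (47.6%) and holds a processed pseudogene, ENSG00000197476, NT_UGI replicate 2 had 1.17, its replicate 0.32, and WT 0.56 and 0.33. At 73.2 Mb of chromosome 16, in an intron of ZFHX3, a gene of a zinc finger and homeobox transcription factor, NT_UGI replicate 2 had 1.03 against 0.50 to 0.73 in the others.

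The fourth was the locus on chromosome 20 (chr20:15828001-15833100), in an intron of MACROD2, which encodes an ADP-ribose hydrolase. It had no repeated words, it was chosen by RTX_UGI_MMR replicate 1 with 1.69, and the other replicate held no region in it. Its 5.1 kb are the length of 1 bin of 100 bp and the smoothing window together. The merged file of that condition gave 0.92. Of the remaining 13 libraries, WT replicate 2 had 0.33 over 27.5% of it and 5FdUR_UGI_MMR replicate 1 had 0.23 over 17.6%. No non-treated and no 5FdUR library chose it, so these were compared: in neither of its 2 bins of 10 kb did all 4 5FdUR libraries exceed all 6 non-treated libraries, beside 11.8% of all bins. No locus was chosen in a 5FdUR library, so the reverse comparison could not be made.

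The plot of word positions also sets the length of a locus beside that of its repeat. The authors smoothed the coverage over 5000 bp, and no member was shorter than 5100 bp. Of the 19 loci, 9 were between 5.1 and 5.7 kb long. In the loci on chromosomes 4, 11 and 21, which are of that length, the words spanned between 0.388 and 0.766 kb. In the first family the words spanned between 4.13 and 13.3 kb. Of the 18 loci with such a word, 12 had a span shorter than the smoothing window. The span is that of 1 word of the family and not of all repeats in a locus.

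Next, the members were compared with the other regions of the same library in measures that the rule did not use. The planned comparison asked for at least 10 members in a library, and only NT_UGI replicate 2 had them, so it gives 1 value for each measure and no test. There the members had a GC content 1.77 percentage points above the other regions, an exon share that differed by -2.11 points, a share of bases in protein-coding genes 12.8 points higher and a median length 2.59 higher on the log2 scale. Over all 6 non-treated libraries, a setting chosen after seeing the data, exons made up 0.339% ± 0.216 (SD, n = 6) of the bases of members and 3% ± 0.162 of those of other regions, lower in 6 of 6 libraries (difference -2.66 points, two-sided exact sign-flip permutation test, p = 0.0312, the smallest p that 6 libraries allow, 0.0625 after adjustment over 4 measures). The median length was 2.60 ± 0.11 (SD, n = 6) higher on the log2 scale, which is given without a p-value because the smoothing sets a least length for a high region. Length still counts among the 4 measures, so the adjusted value of the exon share rests in part on it. GC content was 32.1% ± 2.68 in members and 33.7% ± 0.138 in other regions (p = 0.156, adjusted 0.156, exact sign-flip permutation test), and the share of bases in protein-coding genes 16.7% ± 20.9 and 36.6% ± 0.402 (p = 0.0938, adjusted 0.125, same exact test). None of these 3 measures passed 0.05 after adjustment. The libraries share loci, that on chromosome 14 in all 6, so these p-values treat as separate what is partly the same DNA.

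In the loci as a whole, 543 of 150000 bp were exonic and none was coding sequence. Exons thus made up 0.362% of the locus bases, beside 5.44% of chromosomes 1 to 22. Protein-coding genes made up 42% of the locus bases, close to their 45.3% of these chromosomes. By GENCODE release 44, 8 of the loci held no annotated gene, 8 lay in or overlapped a protein-coding gene, and 3 held an exon. Of 19111 protein-coding genes on these chromosomes, 9 overlapped a locus, or 0.0471%. None of the 53 genes listed for thymidylate and dUTP metabolism (18), uracil excision and base excision repair (12), mismatch repair (8) and histone methylation (15) was among them.

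The repeated share rose with the log2 value of the region, also below the limit. In the non-treated libraries it was 1.13% ± 0.0413 (SD, n = 6) of the bases of regions under 0.4 and 1.47% ± 0.287 from 0.5 to 0.6, and it increased to 12.4% ± 5.8 from 0.7 to 0.8, 26.5% ± 5.1 from 0.8 to 0.9 and 33.4% ± 5.33 from 0.9 to 1.0. These regions did not choose a locus, but some of them lie at the chosen loci. Of the 43 regions from 0.9 to 1.0 in all libraries, 16 overlapped a locus, and regions at the loci also lay from 0.8 to 0.9. The rise below the limit is thus in part that of the same DNA. Members had 41.1% ± 9.79. K562 followed the same order, with 1.13% under 0.4, 14.5% from 0.8 to 0.9 and 38% at 1.0 or more. In the 3 RTX libraries with regions from 0.7 to 0.8, 19 in all, the share was between 1.46% and 4.16%, below that of every non-treated library in that class (6.67% to 23%). The 2 5FdUR libraries with such regions, 10 in all, had 5.74% and 8.11%. Regions of this class were longer after drug treatment. Their median length was 23200 to 155300 bp in the RTX libraries, 18500 and 32800 bp in the 5FdUR libraries and 6100 to 9300 bp in the non-treated ones. The shares are thus not those of regions of like length.

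Repeats in general were covered less than average in the non-treated libraries, without a match for GC content. In the 5FdUR libraries the difference was within the spread between libraries. Chromosomes 1 to 22 were divided into 551287 windows of 5 kb. Windows outside the loci with a repeated share from 20% to 40%, 5079 in all, were covered to 4.2% ± 0.401 (SD, n = 6) in the non-treated libraries, and those of 40% or more, 1015 in all, to 3.37% ± 0.403, below the 11.5% ± 0.145 of all windows. The 5FdUR libraries covered the same 2 sets to 17.3% ± 4.29 and 19.7% ± 6.63 (SD, n = 4), beside 17.9% ± 0.241 of all windows, and the RTX libraries to 11.2% ± 3.38 and 9.74% ± 3.06 (SD, n = 4), beside 18.8% ± 0.722. The authors removed blacklisted and poorly mappable segments and ambiguously mapped reads, and 46.1% of the 5079 windows and 34% of the 1015 held no region in any of the 15 libraries, beside 10.8% of all windows. The part of that removal in the coverage of repeats was not tested. Nor was that of GC content, with which coverage varied: the non-treated libraries covered windows of 40.5% to 43.5% GC to 0.886% ± 0.176.

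Windows rich in the words of the first 2 families had more coverage than windows of like GC content in every library. The difference was larger, in percentage points, in the non-treated libraries and K562 than in the drug-treated ones. AATATCACAG, on either strand, occurred at least 10 times in 253 windows, or 0.0459% of all, of which 240 lay outside the loci, in 140 separate runs on 21 chromosomes. The non-treated libraries covered these 240 windows to 64.1% ± 2.57 (SD, n = 6), with each library between 60.8% and 67%, and K562 to 59.3%. Their median GC content was 42.1%, and all 93854 windows with a GC content in their middle range (40.5% to 43.5%) were covered to 0.886% ± 0.176 in the non-treated libraries and to 0.712% in K562. The median log2 value of the regions at the 240 windows was between 0.47 and 0.62 in the non-treated libraries. The 5FdUR libraries covered them to 39.7% ± 10.7 (SD, n = 4) and the RTX libraries to 30.1% ± 2.83 (SD, n = 4), each of the 8 libraries below each of the 6, with 55.6% in replicate 1 of 5FdUR_UGI_MMR as the highest, while the windows of like GC content were covered to 20.8% ± 2.38 and 21.7% ± 1.46. ATATATACAC occurred at least 10 times in 0.137% of the windows. The 748 of them outside the loci were covered to 35.5% ± 4.2 in the non-treated libraries, 29.4% in K562, 14% ± 2.07 after 5FdUR and 15.7% ± 2.94 after RTX, and the windows of like GC content to 15.7% ± 0.476, 15.5%, 8.52% ± 3.87 and 9.79% ± 1.68. The excess was small in RTX_UGI_MMR replicate 1 (12.7% against 12.3%) and 5FdUR_UGI_MMR replicate 2 (15.4% against 14.2%). AAAATATCAA reached 10 copies in 6 windows, or 0.00109%, and 5 of them were in the loci, while the other was covered to 0% in all 15 libraries. The words were taken from the loci after seeing them, so these are values without a test, and a copy of a word is a match of letters only. A single word of this kind occurs in many windows, in 2.09%, 10.1% and 6.34% of them for the 3 families.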

How the data were processed

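Regions of 15 single U-DNA-Seq libraries and 7 merged-replicate files were used. The authors aligned reads to GRCh38 with BWA 0.7.17-r1194, used Picard for duplicates, left out blacklisted segments and reads without a unique position, and derived coverage scaled to genome size in bins of 100 bp, smoothed over 5000 bp, and its log2 ratio of enriched to input DNA with deepTools 3.2.1. The deposited log2 value of a region was read as the mean of its bins above a threshold that the authors set for each library. The region files hold no read counts, so depth was not used here. Reads came from HiSeq or NovaSeq instruments, and which library ran on which is not given in the sources used here. Input and control samples, for which no region file of their own was given, were not analysed here.

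No region ran past the end of its reference chromosome. Regions with a log2 value of at least 1.0 were merged where they overlapped and set against GENCODE release 44. The loci named in full follow a rule: the 12 chosen by most libraries, the 5 highest, the 3 longest and up to 5 chosen by non-treated libraries or K562 only, each with up to 3 protein-coding genes or the nearest one. The other loci are named as members. Comparisons within libraries used two-sided exact sign-flip permutation tests with Benjamini-Hochberg adjustment over 4 measures. Routines were tested on simulated data. Python 3.11.15 and numba 0.67.0 were used. The members and gene lists were chosen with earlier results of these data known. The setting with all 6 non-treated libraries, the repeated share, the words and the windows were added after seeing the data. The sequences of some loci are not reported here.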

Additional observations from a re-analysis of the deposited data

Results flagged for a closer look

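In 23 sets of 4 or 6 libraries of 1 class in which every library held a region at a locus, the highest and the lowest library were set against the nearest other one. In 3 of them 1 library stood apart. Chance does so in about 1 set in 20 where the values did not choose the set, which is not the case here, so the number of such sets is a description only. On chromosome 11, NT_UGI replicate 2 had a log2 value of 1.14 and the next of the 6 non-treated libraries 0.64. On chromosome 19, in ZNF331, the same library had 1.09 and the next 0.60. On chromosome 21, in SYNJ1, NT_UGI_MMR replicate 1 had 1.31 and the next 0.78. The library that stood apart is in each case the only one that chose the locus, so its distance from the others follows in part from the choice.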

How the results depend on the processing

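The number of loci depended on the limit: 42 at a log2 limit of 0.9 and 9 at 1.1, and 12 with the merged-replicate files and K562. Leaving out 1 library gave between 14 (without NT_UGI replicate 2) and 19 loci, and merging over 5 kb or adding chromosomes X and Y left 19. The differences of NT_UGI replicate 2 were not stable in 2 measures. The GC difference of 1.77 points turned to -0.255 with the 3 libraries of 5 or more members and to -1.65 with all 6 non-treated libraries. The difference in the share of protein-coding genes, 12.8 points, turned to -3.01, -7.79 (limit of 0.9) and -19.8. The causes were not tested. The exon difference of -2.11 moved to -2.54 and -2.66 with those sets of libraries, to -1.67 against regions at least as long as the shortest member and to -0.544 for coding sequence. The length difference of 2.59 moved to 1.32 against other regions of at least 1 kb, and the difference in repeated share of 31.6 points to 21.6 for repeats within 100 bases. Over the 6 non-treated libraries, leaving out 1 gave between -2.34 and -0.82 for GC content, -2.77 and -2.56 for exons, -26.4 and -16.4 for genes, 2.56 and 2.62 for length and 36.4 and 41.6 for the repeated share, where 5 libraries cannot reach a p under 0.0625. The replicate numbers did not pair the libraries: the differences between replicates 1 and 2 correlated between conditions with r from -0.08 to 0.06 over bins of 10 kb (21 pairs of conditions). The replicate block left them at -1.65, -2.66, -19.8, 2.60 and 39.9, and the count of bins at the locus on chromosome 20 at 0. Limits of 20 members or 1.1 and the drug-treated libraries alone left no library for the comparison, and no 5FdUR library chose a locus. Of the bases of a locus, 88.6% were covered in the other replicate.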
